A study of Mus musculus with 12 samples.

Results

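The genes described here encode the subunits of the 5 complexes of oxidative phosphorylation, the cytochrome c that carries electrons between them, several complex I assembly factors, and the tissue-restricted isoforms of these proteins. They were chosen by symbol: every gene whose symbol begins with Nduf, Uqcr, Atp5, Cox4, Cox5, Cox6, Cox7 or Cox8, together with Sdha, Sdhb, Sdhc, Sdhd, Cyc1, Cycs and Cyct. This gave 99 of 20788 genes in the table, measured in 12 libraries. Of these, 47 belong to complex I, 4 to complex II, 9 to complex III, 2 to cytochrome c, 20 to complex IV and 17 to complex V. A total of 96 passed the filter on low counts and were tested, and Ndufb4b, Cox6a2 and Cox8b did not pass it. Subunits encoded by mitochondrial DNA fall outside these symbols and were not analysed here.

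RNA was sequenced from testes of F1 mice, labelled as strain IRC, in 4 groups of 3 libraries. The overexpression group (label 8276OV) and the knockdown group (label 8276KD) had received virus meant to raise or to inhibit lncRNA8276, a long non-coding RNA that carries no other name in the labels. Groups 5NC and 3NC serve as controls, the first for overexpression and the second for knockdown, an assignment that rests on the order of names in the design text. All 4 groups are whole testis, and the labels give no age, no parents of the F1 cross, no promoter and no count of animals. Whether replicate libraries are different animals is not stated, and p-values here reflect only how these samples spread, which may be technical. The lncRNA itself was not analysed here, and no label could be checked by the level of its target.

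In oxidative phosphorylation, complexes I and II pass electrons from NADH and succinate to ubiquinone, complex III passes them to cytochrome c, and complex IV passes them to oxygen. Complexes I, III and IV pump protons across the inner mitochondrial membrane, and complex V, the ATP synthase, uses that gradient to make ATP. The testis is known for its own versions of several of these proteins: from meiosis onward, male germ cells make a testis cytochrome c and testis isoforms of small complex IV subunits beside or in place of the somatic ones.

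Each library held between 13485479 and 15771655 counts, over 18635 to 18911 genes detected. Marker genes of pachytene cells, round spermatids and elongating spermatids were detected throughout, with none of the 12 markers in each of these lists at 0, and the 12 elongating spermatid markers summed to between 21101 and 29844 CPM (counts scaled to a common library size). Libraries stood apart in 4 ways that touch the results. The library 3NC 2 held 817 CPM of 12 leukocyte markers, and the other 11 libraries held 75.3 to 120 CPM. The libraries overexpression 2, 5NC 2 and 5NC 3 had the 3 lowest totals, at 13847277 counts or fewer. The third was knockdown 1, whose 8 Leydig cell markers summed to 966 CPM, against 1727 and 2173 CPM in knockdown 2 and 3, and whose 10 myoid and muscle markers summed to 575 CPM, against 432 and 441 CPM; 3NC 3 was also low in Leydig cell markers, at 1078 CPM. The fourth was the tie between a gene's level and the GC content of its transcript, described further on, which ran in opposite directions in 5 and in 7 of the libraries. In whole testis, fewer cells of a type and less RNA per cell cannot be told apart.

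Promoter windows are shown first for some of the genes named below: the testis and somatic cytochrome c genes, the testis and somatic forms of complex IV subunit 7b, and Ndufa5, an accessory subunit of complex I. The windows come from RefSeq on GRCm38.p6 and run from 250 bases before the annotated start to 50 bases after it, so that the first base of the gene is position 1. Capitals mark matches, on either strand, to the motifs searched: the nuclear respiratory factor 1 motif, named NRF1 below, TGACGTCA (the cyclic AMP response element), its part TGACGT, which overlaps it, CCGGAAGT (an ETS motif) and CCAAT. The windows lie at chr2:76360404-76360703 (minus strand) for Cyct, chr6:50566520-50566819 (minus strand) for Cycs, chr5:71548156-71548455 (minus strand) for Cox7b2, chrX:106015450-106015749 (plus strand) for Cox7b and chr6:24527641-24527940 (minus strand) for Ndufa5, which has a second, overlapping window that is not shown.
Cyct: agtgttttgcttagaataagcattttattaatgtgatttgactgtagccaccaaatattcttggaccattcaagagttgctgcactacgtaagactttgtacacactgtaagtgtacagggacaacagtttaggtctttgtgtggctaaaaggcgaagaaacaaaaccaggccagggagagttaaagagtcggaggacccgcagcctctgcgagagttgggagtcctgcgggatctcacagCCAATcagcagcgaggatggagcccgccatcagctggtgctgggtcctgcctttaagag
Cycs: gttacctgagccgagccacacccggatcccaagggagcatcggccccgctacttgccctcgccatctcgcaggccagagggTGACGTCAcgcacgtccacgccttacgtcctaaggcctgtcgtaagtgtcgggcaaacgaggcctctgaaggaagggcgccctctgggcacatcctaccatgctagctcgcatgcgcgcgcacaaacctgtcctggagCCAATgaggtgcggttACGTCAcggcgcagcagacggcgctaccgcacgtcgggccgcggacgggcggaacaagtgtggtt
Cox7b2: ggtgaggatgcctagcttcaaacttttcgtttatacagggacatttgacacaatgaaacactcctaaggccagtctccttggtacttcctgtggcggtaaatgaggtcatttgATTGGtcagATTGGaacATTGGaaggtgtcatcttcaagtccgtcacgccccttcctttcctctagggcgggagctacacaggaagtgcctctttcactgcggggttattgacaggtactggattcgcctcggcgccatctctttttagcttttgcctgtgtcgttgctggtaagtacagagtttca
Cox7b: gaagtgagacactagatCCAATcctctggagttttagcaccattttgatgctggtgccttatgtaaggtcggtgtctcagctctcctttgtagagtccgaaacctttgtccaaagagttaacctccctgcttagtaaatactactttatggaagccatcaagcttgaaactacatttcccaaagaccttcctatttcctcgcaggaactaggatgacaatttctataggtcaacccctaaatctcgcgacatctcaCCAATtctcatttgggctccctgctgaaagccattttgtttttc
Ndufa5: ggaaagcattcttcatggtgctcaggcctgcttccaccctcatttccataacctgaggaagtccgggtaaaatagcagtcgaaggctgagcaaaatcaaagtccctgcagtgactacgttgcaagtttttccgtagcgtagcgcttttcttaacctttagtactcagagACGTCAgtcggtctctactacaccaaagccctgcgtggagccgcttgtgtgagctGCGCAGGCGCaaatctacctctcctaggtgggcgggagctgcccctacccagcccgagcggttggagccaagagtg

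The somatic Cycs window held 1 complete TGACGTCA, which begins at position -169, a further TGACGT at -15 and CCAAT at -31. It held no exact match to the NRF1 letters, and sites that depart from those letters were not searched. The testis Cyct window held CCAAT at -9 and no match to the other motifs. The Cox7b2 window held CCAAT 3 times, at -137, -128 and -120, and the X-linked Cox7b window held it at -233 and 7. The Ndufa5 window held the NRF1 motif at -26 and TGACGT at -81. Of the 99 genes, 79 had a promoter in the RefSeq table, and the NRF1 motif was found in 19 of these 79 (24.1%), against 7.69% of all 16284 genes with a promoter. TGACGTCA was in 5 of the 79 genes (6.33%), a small count, against 2.71% of all genes. The remaining shares were closer: TGACGT was in 12.7% of the 79 genes and 10.1% of all genes, CCGGAAGT in 6.33% and 6.08%, and CCAAT in 45.6% and 42.2%. A match is a run of letters and not a bound site, and a window without one lacks only those letters.

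Levels between genes are compared here per length, in FPKM, which scales fragment counts by gene length and library size, as the authors deposited them. Of the 99 genes, 44 averaged at least 100 FPKM over the 12 libraries and 4 averaged under 1 FPKM. Complex IV held both the highest and the lowest level. Cox8c, the testis isoform of its smallest subunit, averaged 773 ± 107 FPKM, and Cox8b, the heart and muscle isoform of the same subunit, averaged 0.0475 FPKM, from 2 counts in 1 library. The next levels were those of Cox7c at 468 FPKM, Cox6c at 429, Cox4i1 at 394, and 2 further testis isoforms, Cox7b2 at 389 and Cox6b2 at 380.1 FPKM, all of them complex IV subunits.

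**Figure D1:**
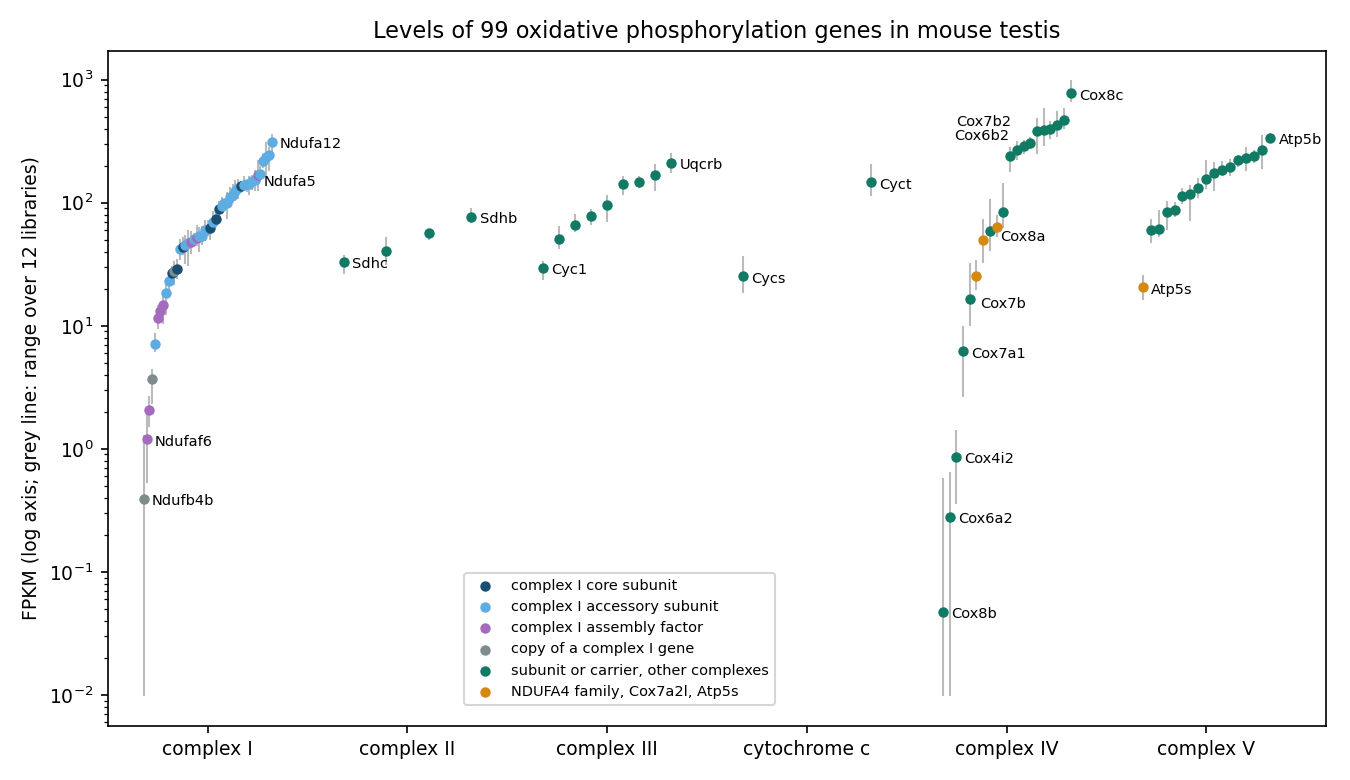
Mean level of each of the 99 genes over 12 libraries, in FPKM on a log axis, grouped by complex along the horizontal axis and coloured by role; grey lines span the lowest and highest library, and a line that ends at 0.01 marks a library at 0. The testis isoforms Cox8c, Cox7b2 and Cox6b2 lie at the top of complex IV with 773, 389 and 380.1 FPKM, and the muscle isoforms Cox6a2 and Cox8b lie at its bottom.

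In complex I the highest level was that of Ndufa12, an accessory subunit of the matrix arm, at 313 ± 25.0 FPKM (SD over 12 libraries, as for the levels below). The 29 accessory subunits had a median of 100.2 FPKM. The 7 core subunits are shared with bacterial enzymes and include those that hold the redox centres. Their median was 61.8 FPKM, and that of the 8 assembly factors was 14.0 FPKM. Among the assembly factors Ndufaf3 stood highest at 169 FPKM and Ndufaf6 lowest at 1.20 FPKM. Ndufb4b, a copy of the accessory subunit gene Ndufb4, averaged 0.394 FPKM and was the lowest of complex I. Its counts are shared with its copies and carry fractions: they were 5.53, 5.68 and 2.23 in overexpression and 2.02, 6.73 and 0 in knockdown libraries, against 2.07, 0 and 0 in 5NC and 0, 0 and 0 in 3NC libraries. It was not tested.

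In complex II, Sdhb, the iron-sulfur subunit, was highest at 76.7 ± 5.34 FPKM and Sdhc, a membrane anchor, lowest at 32.9 ± 2.49 FPKM. In complex III, Uqcrb, a small subunit without a redox centre, was highest at 211 ± 24.5 FPKM and Cyc1, which encodes cytochrome c1, lowest at 29.5 ± 2.72 FPKM. In complex V, Atp5b, the catalytic beta subunit, was highest at 338 ± 10.4 FPKM and Atp5s, the coupling factor B gene, lowest at 20.5 ± 2.66 FPKM. Subunits that stand together in a complex therefore differed in level by 2.33-fold (Sdhb over Sdhc), 7.15-fold (Uqcrb over Cyc1) and 5.63-fold (Atp5b over Atp5g1, which encodes a membrane ring subunit and was the lowest complex V subunit at 60.1 FPKM). The smallest spreads between libraries were those of Sdha, the flavoprotein of complex II, with an SD of 0.046 of log2 CPM, and Atp5b with 0.057. The median over the 96 tested genes was 0.16. The largest were those of Cox7b (0.38), the muscle isoform Cox7a1 (0.35) and Ndufa7, an accessory subunit of complex I (0.34). Ndufa7 was at 118, 73.7 and 127 CPM in overexpression and 110.1, 102 and 99.7 CPM in knockdown libraries, against 106, 72.2 and 74.4 CPM in 5NC and 104, 61.0 and 74.7 CPM in 3NC libraries. It was at 61.0 to 74.7 CPM in overexpression 2, 5NC 2, 5NC 3, 3NC 2 and 3NC 3, and at 99.7 CPM or more in all others. The libraries with the low values are those with negative GC slopes, described further on.

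Of the 98 genes with a known position, 3 lie on the X chromosome, which is silenced in meiosis of male germ cells. They were Ndufa1 at 45.4 FPKM, Ndufb11 at 18.4 FPKM and Cox7b at 16.4 FPKM, which rank 73, 86 and 87 of the 99 genes by level. The autosomal testis form of Cox7b, Cox7b2 on chromosome 5, ranks 5.

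Of the 9 isoform pairs, the 4 with a testis isoform had more of the testis form than of the somatic form, per length, in each of the 12 libraries. Cyct, the testis cytochrome c gene (chr2:76353942-76360450, GENCODE M21 on GRCm38), had 126, 167 and 128 FPKM in overexpression, 122, 116 and 119 in knockdown, 135, 204 and 193 in 5NC and 122, 143 and 182 in 3NC libraries. Cycs, the somatic gene (chr6:50562563-50566538), had 20.3, 29.3 and 21.3 FPKM in overexpression, 21.2, 20.2 and 21.8 in knockdown, 22.7, 36.1 and 31.0 in 5NC and 18.8, 34.3 and 25.6 in 3NC libraries. The ratio of the FPKM of Cyct to that of Cycs ran from 4.17 to 7.10 with a median of 5.84. In raw counts the pair is nearly even, with a median log2 ratio of 0.088, because the length that the FPKM values imply is 2924 bases for Cycs and 526 for Cyct.

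For subunit 7b the ratio was the widest of the 4 testis pairs. Cox7b2 (chr5:71442824-71548205) over Cox7b (chrX:106015700-106022450) gave FPKM ratios of 25.7, 29.4 and 15.8 in overexpression, 19.7, 19.2 and 17.6 in knockdown, 28.1, 35.2 and 29.3 in 5NC and 24.6, 12.9 and 52.5 in 3NC libraries. The highest and the lowest ratio are both 3NC libraries. For Cox8c over Cox8a, the ubiquitous form, the ratios were 13.2, 15.0 and 12.4 in overexpression, 12.7, 15.9 and 11.7 in knockdown, 12.3, 17.6 and 15.0 in 5NC and 12.4, 6.57 and 20.1 in 3NC libraries. For Cox6b2 over Cox6b1 they were 6.88, 3.43 and 5.59 in overexpression, 7.26, 5.80 and 4.63 in knockdown, 5.77, 3.41 and 3.51 in 5NC and 5.26, 1.78 and 4.92 in 3NC libraries. In all 4 testis pairs 3NC 2, the library with the high leukocyte marker sum, had the lowest ratio. Cox7b was at 11.2, 25.8 and 9.20 CPM in the 3NC libraries, where the second value is 3NC 2, Cox8a at 23.4, 39.7 and 17.7 CPM and Cox6b1 at 28.6, 48.4 and 25.0 CPM, and in each case 3NC 2 was the highest of the 12 libraries. The testis forms Cox6b2 and Cox8c were at the same time lowest in 3NC 2, at 166, 95.5 and 136 and 241, 216 and 294 CPM in the 3NC libraries. The part of leukocyte RNA in these values was not tested.

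The isoforms of heart and skeletal muscle were at low levels: Cox6a2 had 0 to 5 counts in a library and a median of 0.0960% of the summed FPKM of its pair, and Cox7a1 had 2.07% of the sum with Cox7a2. Cox4i2, the isoform of lung and of the response to low oxygen, had 0.198% of the sum with Cox4i1. Ndufa4l2, which is known to be induced by low oxygen, was not as low, with a median ratio to Ndufa4 of 0.588 (0.275 to 0.651). Its lowest ratio also came from 3NC 2.

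**Figure D2:**
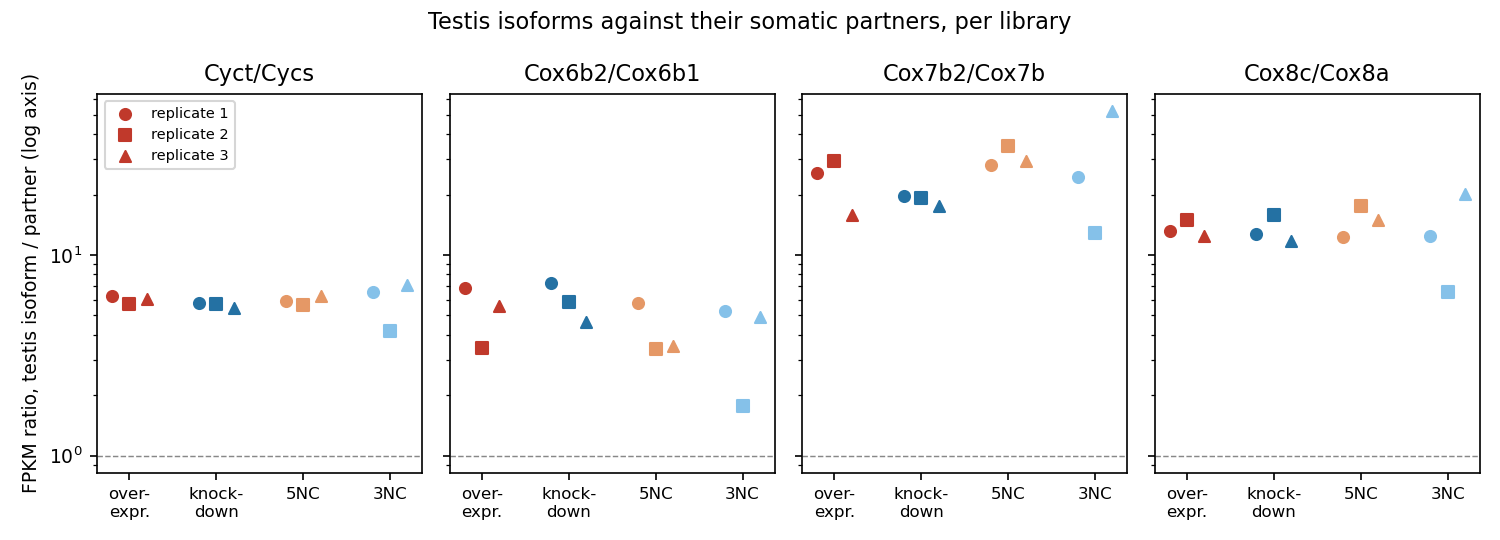
Ratio of the FPKM of each testis isoform to that of its somatic partner, on a log axis, for the 12 libraries in 4 groups; each point is a library and the shape gives the replicate number. All points lie above the dashed line at 1, and 3NC replicate 2 is the lowest point in each panel.

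No difference between groups in the 9 ratios passed. Over 27 exact two-sided permutation tests of the log2 count ratio, each of 3 libraries against 3, the adjusted p was 0.982 or higher; with 3 against 3 the smallest p possible is 0.10, so no single test could pass. For Cyct over Cycs the mean log2 count ratio was 0.12 ± 0.081 in overexpression and 0.089 ± 0.072 in 5NC (SD, n = 3 each). For Cox7b2 over Cox7b it was 3.44 ± 0.46 in overexpression and 3.85 ± 0.17 in 5NC, and 3.15 ± 0.087 in knockdown and 3.58 ± 1.02 in 3NC. For Cox6b2 over Cox6b1 the knockdown mean was 2.67 ± 0.33 and the 3NC mean 1.99 ± 0.87, a difference of 0.69 that was 0.19 without 3NC 2; the difference for Cox7b2 over Cox7b between these groups was -0.43, and -0.92 without it.

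Overexpression was set against 5NC to see whether the respiratory genes differ in testes labelled as overexpressing lncRNA8276. In this comparison, Ndufa5 had higher values in overexpression, but none of the 96 tested genes passed. For 7 genes of complexes I, IV and V (7.29%) all overexpression values lay below all 5NC values, a smaller share than the 10.3% of all genes. The count that passed was 0 of 96 by edgeR's quasi-likelihood test at an adjusted p of 0.05, where 0.476% of all 16395 genes passed. At an unadjusted p of 0.05, 6 of the 96 did (6.25%), 2 higher and 4 lower, against 15.3% of all genes (8.9% higher and 6.39% lower). DESeq2 called 1 of them, Ndufa5, where it called 4.53% of all genes, and limma-voom called 0 where it called 0.366%. The median log2 fold change of the 96 genes was 0.0073, with 55 above 0, and that of all genes was -0.012.

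Ndufa5 encodes an accessory subunit of the matrix arm of complex I (chr6:24518666-24528013). It is described because its p was the smallest of the tested respiratory genes by edgeR in both construct comparisons. It had 75.8, 63.7 and 78.9 CPM in the overexpression libraries and 70.7, 68.6 and 69.1 CPM in the knockdown libraries, against 55.5, 59.3 and 53.5 CPM in the 5NC libraries and 56.1, 48.0 and 60.3 CPM in the 3NC libraries. The lowest of the 6 libraries with a construct, overexpression 2, lay above the highest of the 6 controls, 3NC 3. Its log2 fold change was 0.38 ± 0.10 (SE) in overexpression against 5NC (edgeR adjusted p = 0.118, DESeq2 0.0233) and 0.34 ± 0.10 in knockdown against 3NC (edgeR adjusted p = 0.559, DESeq2 0.276). Without 3NC 2 the first of these passed, with an edgeR adjusted p of 0.0453; that library is in neither group compared, and why the call changed was not tested.

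Cox6c, a complex IV subunit and the third most abundant of the 99 genes, had the lower values with either construct. It stood at 136, 163 and 152 CPM in overexpression and 137, 130.3 and 138 CPM in knockdown libraries, against 163, 193 and 181 CPM in 5NC and 152, 165 and 183 CPM in 3NC libraries. The overexpression and 5NC values overlap narrowly, while the knockdown values all lie below those of 3NC. The log2 fold change was -0.25 ± 0.097 in overexpression against 5NC and -0.30 ± 0.097 in knockdown against 3NC (edgeR adjusted p = 0.231 and 0.559).

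The other genes at an unadjusted p of 0.05 in overexpression against 5NC were Ndufa11b on the higher side and Atp5e, Ndufb10 and Sdhd on the lower side. Atp5e, the epsilon subunit of complex V, had a log2 fold change of -0.38 ± 0.16 and Sdhd, a membrane anchor of complex II, one of -0.29 ± 0.13 (edgeR adjusted p = 0.291 and 0.303). Ndufa11b, annotated as a processed pseudogene of the complex I gene Ndufa11 and with counts shared with it, had 4.60, 3.16 and 4.77 CPM in overexpression and 3.33, 2.19 and 2.73 CPM in 5NC libraries, a log2 fold change of 0.60 ± 0.22 (edgeR adjusted p = 0.203). Ndufb10, an accessory subunit of the membrane arm, had 44.2, 46.8 and 47.4 CPM in overexpression and 55.1, 51.9 and 53.1 CPM in 5NC libraries, so that the groups do not overlap. Groups failed to overlap on the lower side for 7 of the 96 genes (Atp5e, Atp5g2, Atp5o, Cox7a2l, Cox8c, Ndufb10 and Ndufb5), or 7.29%, against 10.3% of all genes, and on the higher side for 2 (Atp5k and Ndufa5), or 2.08%, against 11.7%. Neither share exceeds that of the genes at large. For Atp5e, Atp5o, Cox7a2l and Ndufb10 all 5NC values also lay above all 3NC values, so their 5NC libraries were high against both groups.

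**Figure D3:**
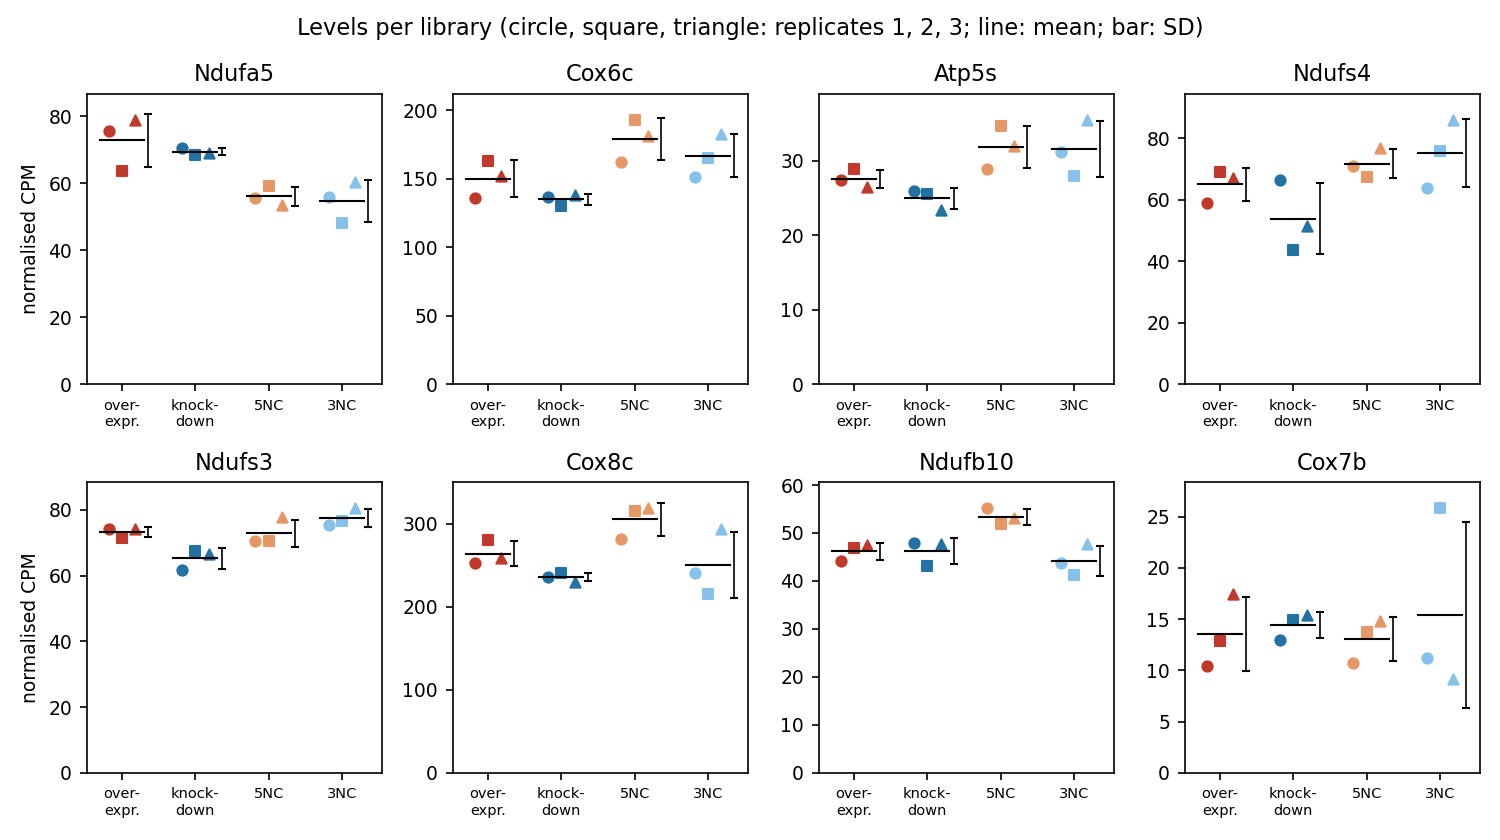
Normalised CPM of 8 respiratory genes in each of 12 libraries, with the axis starting at 0; points are libraries, the horizontal line is the group mean and the bar its SD (n = 3). Ndufa5 is higher in all 6 libraries with a construct than in all 6 controls, and Cox7b in 3NC replicate 2 stands at 25.8 CPM, above all other libraries.

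Knockdown was set against 3NC to ask the same of testes labelled as lncRNA8276 knockdown. Ndufa5 again had the higher values in knockdown, and among the lower ones were Ndufs4, Ndufs3, Atp5s, Cox6c and Sdhb. Again 0 of 96 genes passed by edgeR, where 0.0183% of all genes did. DESeq2 called 0, where it called 0.14% of all genes, and limma-voom called 0, where it called 0.0183%. At an unadjusted p of 0.05 there were 8 of 96 (8.33%), 1 higher and 7 lower, against 8.69% of all genes (3.25% higher and 5.43% lower). The 96 genes had a median log2 fold change of 0.022, with 51 above 0, and the whole table one of -0.025.

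Ndufs4, an accessory subunit of the NADH-binding module of complex I whose loss is known to cause a Leigh-like disease in mice, had 66.3, 43.8 and 51.3 CPM in knockdown against 63.8, 75.9 and 85.9 CPM in 3NC libraries. The groups overlap through knockdown 1, the library apart in Leydig and myoid markers, and the log2 fold change was -0.48 ± 0.15 (edgeR adjusted p = 0.559), and -0.66 without that library (adjusted p = 0.818). Ndufs3, a core subunit of the matrix arm, had 61.6, 67.5 and 66.5 CPM in knockdown against 75.3, 76.6 and 80.4 CPM in 3NC libraries, with no overlap and a log2 fold change of -0.25 ± 0.076 (edgeR adjusted p = 0.559). Atp5s had 25.9, 25.5 and 23.3 CPM in knockdown and 31.2, 27.9 and 35.4 CPM in 3NC libraries, also without overlap, a log2 fold change of -0.34 ± 0.11 (edgeR adjusted p = 0.559). Groups failed to overlap on the lower side for 5 genes (Atp5s, Cox6c, Ndufaf2, Ndufs3 and Sdhb), or 5.21%, against 6.57% of all genes, and on the higher side for 4 (Ndufa5, Ndufa9, Ndufb7 and Sdhc), or 4.17%, against 6.48%. Several values in this comparison rest on 3NC 2: without it the log2 fold change of Cox7b was 0.50 in place of -0.098, that of Cox8a 0.057 in place of -0.34, and that of Ndufa4 0.12 in place of -0.17.

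The difference between the overexpression effect and the knockdown effect was tested directly. By edgeR 0 of 96 genes passed, where 0.0183% of all genes did. DESeq2 called 0, where it called 0.323% of all genes, and limma-voom called 0, where it called 0.0183%. At an unadjusted p of 0.05 there were 3 (3.13%), against 6.73% of all genes. Atp5mpl, a small proteolipid subunit of complex V, had 65.6, 71.7 and 60.5 CPM in overexpression against 55.1, 60.8 and 65.2 CPM in 5NC, and 52.9, 62.6 and 55.6 CPM in knockdown against 60.4, 69.0 and 76.8 CPM in 3NC. Its log2 fold changes were 0.13 and -0.27, and their difference was 0.40 ± 0.16 (edgeR adjusted p = 0.699). For Ndufs3 the difference was 0.26 ± 0.11 and for Ndufb10 it was -0.27 ± 0.12 (edgeR adjusted p = 0.707 and 0.715). All 5NC values of Ndufb10 also lay above all its 3NC values, as given below. For Ndufa5 it was 0.034 ± 0.15 and for Cox6c 0.051 ± 0.14 (edgeR adjusted p = 0.983 and 0.969).

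Because both constructs gave values on the same side for most of these genes, both construct groups together were set against both control groups, a comparison added after the data were seen. Over the 96 genes, 74 (77.1%) had log2 fold changes of the same sign in overexpression against 5NC and in knockdown against 3NC, 42 higher and 32 lower, against 62.5% of all genes. These comparisons share no library. Across the 96 genes the 2 log2 fold changes had a Pearson r of 0.486, a description over genes that share libraries, depth and base composition. In the pooled comparison 0 of 96 genes passed by edgeR, where 0.262% of all genes did, and at an unadjusted p of 0.05 there were 12 (12.5%), against 17.8% of all genes. Limma-voom called 0, where it called 0.189% of all genes, and DESeq2 called 3 (Ndufa5, Cox6c and Atp5s), or 3.13%, where it called 4% of all genes. Ndufa5 had a log2 fold change of 0.36 ± 0.074 (edgeR adjusted p = 0.0786, DESeq2 0.00123), Cox6c of -0.28 ± 0.069 (edgeR 0.111, DESeq2 0.00753) and Atp5s of -0.27 ± 0.077 (edgeR 0.127, DESeq2 0.0389). Ndufa5 was the single tested respiratory gene whose 6 construct libraries did not overlap with the 6 controls. On the higher side that is 1.04% of the 96 genes, against 0.329% of all genes, and on the lower side 0%, against 0.488%. With 1 gene such shares cannot be told apart.

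Over the 96 genes as a set, levels in each library sloped with the GC content of the transcripts. The GC of a gene was that of its longest annotated transcript, which need not be the transcript measured. Each library was given a GC slope, the change of log2 level relative to the mean of all libraries per 10 percentage points of transcript GC, over 9702 genes outside the respiratory set. Slopes ran from -0.21 to 0.18. They were negative in overexpression 2, 5NC 2, 5NC 3, 3NC 2 and 3NC 3 and positive in the other 7, so that all 3 knockdown libraries and 2 of 3 overexpression libraries were positive and 4 of 6 control libraries negative. Slopes over the 96 respiratory genes alone, whose GC ranged from 36.7% to 63.3%, had the same sign in every library and ran from -0.18 to 0.13.

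**Figure D4:**
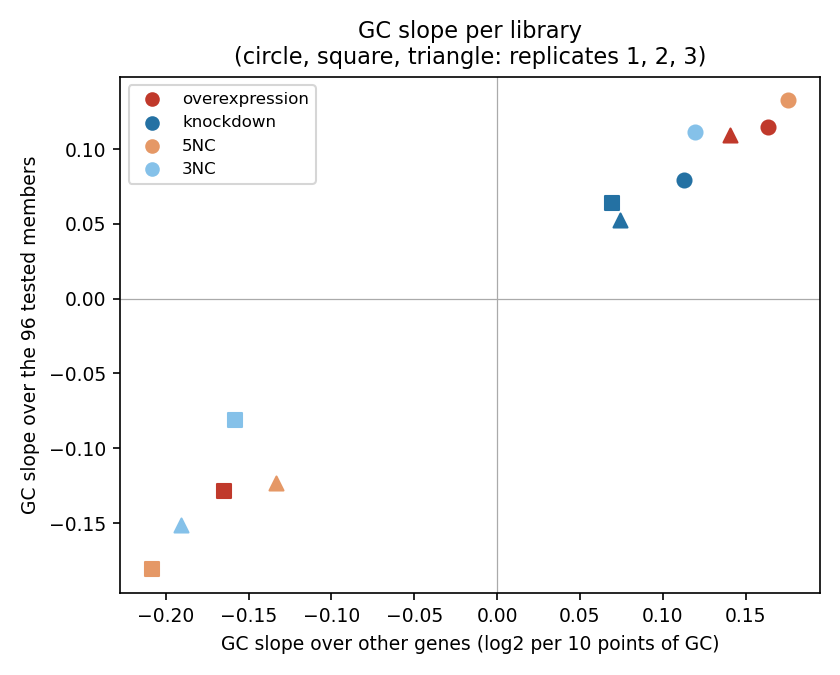
GC slope of each library over genes outside the respiratory set (horizontal axis) and over the 96 tested respiratory genes (vertical axis), both in log2 per 10 percentage points of transcript GC; colour gives the group and shape the replicate. The 12 libraries fall into 5 with negative and 7 with positive slopes on both axes.

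The levels of 3 isoform genes, picked after their values were seen, followed the slopes to unlike degrees. Cox7b2, at 36.7% GC the lowest of the 96, had 128, 177 and 131 CPM in overexpression and 121, 135 and 128 CPM in knockdown libraries, against 142, 227 and 203 CPM in 5NC and 129.8, 154 and 227 CPM in 3NC libraries. Its highest libraries, 5NC 2, 5NC 3, 3NC 3 and overexpression 2, are among the 5 with negative slopes. Cox6b2, at 55.7% GC, ran the other way, with 206, 136 and 183 CPM in overexpression and 192, 176 and 164 CPM in knockdown libraries, against 172, 123 and 129.5 CPM in 5NC and 166, 95.5 and 136 CPM in 3NC libraries, and its 5 lowest values are those same 5 libraries. Cox8a, at 58.5% GC, did not follow the slopes: its highest value, 39.7 CPM, came from 3NC 2, which has a negative slope. Ndufa7, whose values are given above, was also lowest in the 5 libraries with negative slopes. Its GC of 49.4% lies between those of Cox7b2 and Cox6b2. With the GC slope of each library as a term in the fit, an alternative added after the data were seen, the pooled log2 fold change of Cox7b2 was -0.16 ± 0.080 in place of -0.40 ± 0.15, and that of Cox6b2 was 0.17 ± 0.091 in place of 0.37 ± 0.14. That of Cyct was -0.11 ± 0.080 in place of -0.29 ± 0.12, and that of Cycs -0.069 ± 0.069 in place of -0.30 ± 0.14.

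Ndufa5, at 50.3% GC, had a pooled log2 fold change under the same term of 0.32 ± 0.074 (edgeR adjusted p = 0.0953), and Cox6c, at 46.8% GC, was at -0.19 ± 0.046 (edgeR adjusted p = 0.101). Among the 7 libraries with positive slopes, Ndufa5 had 75.8 and 78.9 CPM in overexpression 1 and 3 and 68.6 to 70.7 CPM in knockdown, against 55.5 CPM in 5NC 1 and 56.1 CPM in 3NC 1. Among the 5 with negative slopes it had 63.7 CPM in overexpression 2, against 53.5 to 59.3 CPM in 5NC 2 and 3 and 48.0 and 60.3 CPM in 3NC 2 and 3. Since all 6 construct values lie above all 6 controls, their order within each set is fixed, and the negative set holds 1 construct library. With the GC term the share of the 96 genes with the same sign under both constructs was 66.7%, against 55.6% of all genes, and the r across them was 0.086. Most construct libraries have positive slopes and most controls negative ones, so the term can also take up part of a construct effect. The 2 cannot be fully told apart here.

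**Figure D5:**
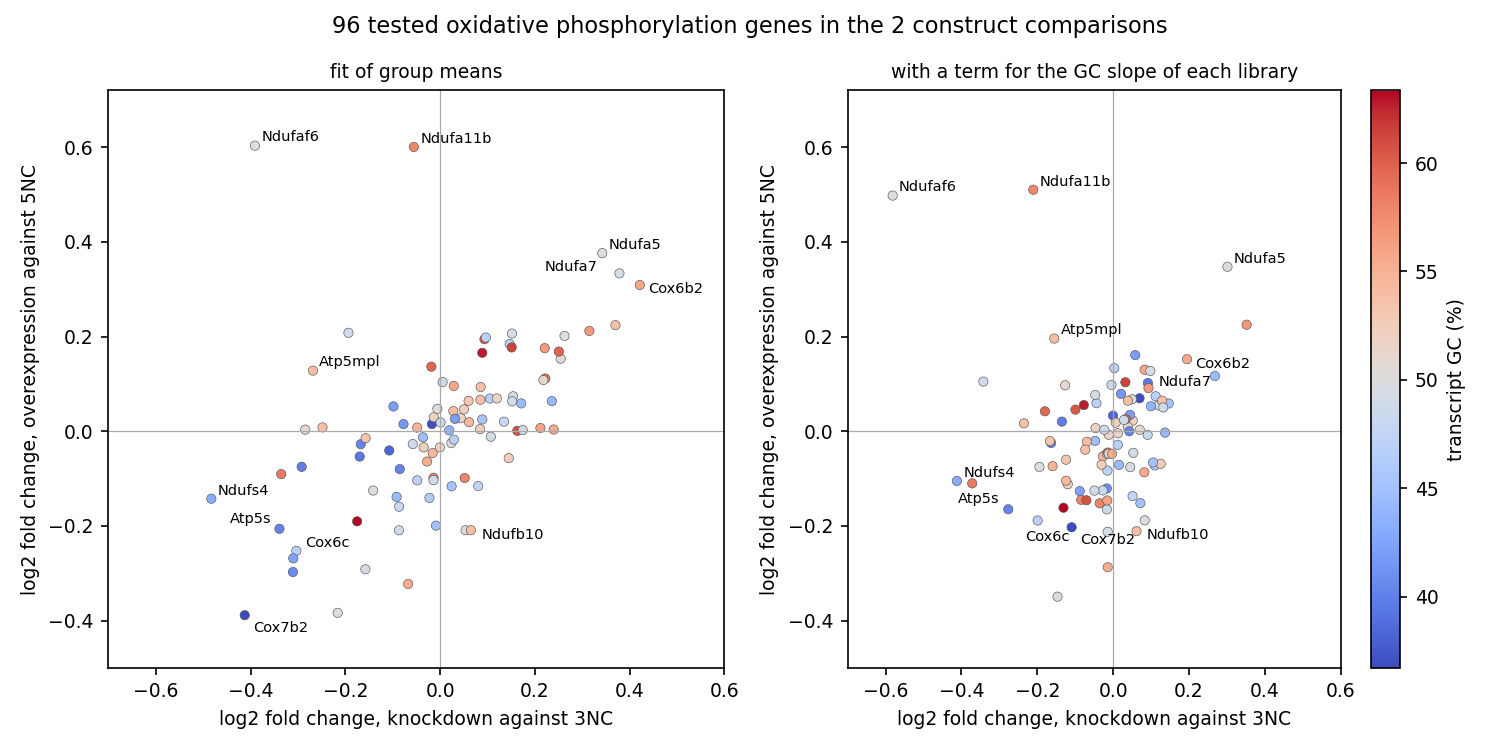
Log2 fold changes of the 96 tested genes in overexpression against 5NC (vertical axis) and in knockdown against 3NC (horizontal axis), without (left) and with (right) a term for the GC slope of each library; colour gives transcript GC in percent. The r between the axes is 0.486 on the left and 0.086 on the right. On the left, transcript GC has an r of 0.32 with the vertical and 0.36 with the horizontal axis. Slopes and constructs partly coincide, so their effects cannot be fully told apart. Ndufa5 lies at the upper right of both panels.

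The 2 control groups were set against each other as the background that the construct effects stand on. Here the respiratory genes leaned to one side: 79 of 96 had higher mean levels in 5NC than in 3NC, against 46.6% of all genes, with a median log2 fold change of 0.10 against -0.018 over all genes. The share of all counts that fell on the 99 genes was 0.796%, 0.788% and 0.787% in the 5NC libraries and 0.731%, 0.727% and 0.705% in the 3NC libraries, without overlap. It was 0.766%, 0.752% and 0.769% in overexpression and 0.737%, 0.717% and 0.727% in knockdown libraries. No gene passed on its own: by edgeR it was 0 of 96, where 0.244% of all genes passed, and DESeq2 called 0 (1.82% of all genes) and limma-voom 0 (0.0793%). At an unadjusted p of 0.05 there were 8 (8.33%), 7 of them higher, against 12.9% of all genes (5.01% higher and 7.87% lower). With the GC term there were 27 (28.1%), 23 of them higher, against 19.5% of all genes (8.83% higher).

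The median lay above 0 in each complex, at 0.094 for complex I, 0.10 for complex II, 0.12 for complex III, 0.10 for complex IV and 0.074 for complex V. Ndufb10 had 55.1, 51.9 and 53.1 CPM in 5NC and 43.7, 41.3 and 47.6 CPM in 3NC libraries, a log2 fold change of 0.27 ± 0.084 (edgeR adjusted p = 0.240). Ndufc2, another accessory subunit of the membrane arm, had 34.3, 33.3 and 31.0 CPM in 5NC and 27.7, 27.9 and 26.2 CPM in 3NC libraries, a log2 fold change of 0.27 ± 0.085 (edgeR adjusted p = 0.245). Cox7a2l, which helps complexes III and IV join into supercomplexes, had 62.1, 71.9 and 70.0 CPM in 5NC and 52.5, 55.5 and 58.7 CPM in 3NC libraries, a log2 fold change of 0.29 ± 0.10 (edgeR adjusted p = 0.287). In each of the 3 the groups do not overlap. This was so on the higher side for 13 of 96 genes (13.5%), against 7.02% of all genes, and on the lower side for Ndufa11b and Ndufaf6 (2.08%), against 6.17%.

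Ndufaf6, an assembly factor of complex I, was the gene farthest to the lower side, with 1.07, 0.776 and 0.503 CPM in 5NC and 1.39, 1.75 and 1.08 CPM in 3NC libraries. Its log2 fold change was -0.83 ± 0.36 (edgeR adjusted p = 0.365), at a mean level of 1.20 FPKM. It was also the gene farthest to the higher side in overexpression against 5NC, a comparison that shares the 5NC libraries, with 1.18, 0.955 and 1.46 CPM in overexpression libraries and a log2 fold change of 0.60 ± 0.37 (edgeR adjusted p = 0.490). Farthest to the higher side in 5NC against 3NC was Cox7a1, with 1.76, 2.19 and 1.73 CPM in 5NC and 1.39, 1.38 and 0.812 CPM in 3NC libraries, a log2 fold change of 0.66 ± 0.34 (edgeR adjusted p = 0.444). Leaving out each library of these 2 groups in turn kept the median of the 96 genes between 0.079 and 0.12. Among markers of other cells 0 passed by edgeR between the same groups, where 0.244% of all genes did. All 10 tested leukocyte markers and all 12 round spermatid markers had lower means in 5NC than in 3NC, with medians of -1.60 and -0.30 (log2). The leukocyte median rests on 3NC 2, without which it was -0.071 with 4 of 10 above 0, while that of round spermatids was -0.44 without 3NC 2 and -0.15 without 3NC 3. All 6 tested adipocyte markers were also lower, with a median of -1.08, and -0.50 without 3NC 1. The elongating spermatid median was -0.18, with 3 of 12 above 0. Medians were 0.11 for spermatogonia, 0.13 for Leydig cells, 0.057 for pachytene cells, -0.0032 for Sertoli cells and -0.012 for myoid and muscle cells. The part of each cell type in the values of the respiratory genes was not tested.

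Other mitochondrial genes, in lists chosen by hand, were set beside these. The 41 tested assembly factors outside the 99 genes had a median log2 fold change of -0.011 in overexpression against 5NC, with 19 above 0, and -0.020 in knockdown against 3NC, also with 19 above 0. For 17 regulators of mitochondrial DNA transcription and biogenesis the medians were 0.030 (9 above 0) and -0.072 (6 above 0). For 12 genes of the outer membrane and protein import they were -0.065 (2 above 0) and -0.088 (4 above 0). In 5NC against 3NC these 3 lists had medians of 0.024, 0.016 and 0.058, all below the 0.10 of the respiratory genes, a difference that was not tested.

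Cell type markers were compared as medians over lists chosen by hand. By edgeR 0 markers passed in either comparison of a construct with its control, where 0.476% (overexpression) and 0.0183% (knockdown) of all genes did. In overexpression against 5NC the 12 round spermatid markers had a median log2 fold change of 0.38, all above 0, and the 12 elongating spermatid markers one of 0.32, with 10 above 0. Both lists had medians below 0 in 5NC against 3NC, a comparison that shares the 5NC libraries. The round spermatid markers summed to 4726 to 4969 CPM in overexpression and 3923 to 4424 CPM in 5NC. In 3NC libraries the sum was 4104 to 5517 CPM, a range that holds the overexpression values. The 12 pachytene markers had 0.00038, with 6 above 0. The medians were 0.012 for spermatogonia, 0.089 for Sertoli cells, 0.20 for Leydig cells, -0.022 for myoid and muscle cells, -0.033 for leukocytes and 0.57 for adipocytes, the last of which was -0.074 without overexpression 3 and 0.30 without 5NC 2. In knockdown against 3NC they were 0.033 for round spermatids, 0.029 for elongating spermatids, -0.023 for pachytene cells, 0.0042 for spermatogonia, 0.17 for Sertoli cells, -0.056 for Leydig cells, 0.35 for myoid and muscle cells, -1.49 for leukocytes and -0.29 for adipocytes. Some of these rest on 1 library. Without 3NC 2 the leukocyte median was 0.084 and that of round spermatids -0.068. Without knockdown 1 the median was -0.19 for myoid and muscle cells, 0.22 for Leydig cells and -1.94 for adipocytes. Some pachytene markers, picked after their values were seen, differed between libraries with negative and with positive GC slopes. Sycp1 was at 208 to 266 CPM in the negative set and 153 to 185 CPM in the positive set. Ybx2 went the other way, at 1184 to 1467 and 1851 to 2046 CPM. Ldhc overlapped, at 2655 to 3272 and 3186 to 3471 CPM. The part of these cells in the values of the respiratory genes was not tested.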

How the data were processed

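RNA of whole testis was measured in 12 libraries of 4 groups. The deposited table gives, per the file headers, read counts per gene, which are estimated counts as not all are whole (88.2% are whole within 1e-06). A second deposited column per library, headed only as expression, was taken as FPKM, since the length that the authors' values imply for a gene varied by a median of 0.726% between libraries. Reads were set against mm10, per the submitters' processing notes, and the aligner, counter and annotation were not given in the sources used here. A further 18 per-sample columns, of 9 other samples, were not used.

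Counts were rounded and genes kept by filterByExpr (minimum count 10), which left 16395 of 20788. One model of group means over all 12 libraries was fitted with edgeR 4.0.16 (TMM, robust quasi-likelihood test, R 4.3.3), and p-values were adjusted by Benjamini-Hochberg over all genes tested, at 0.05. DESeq2 1.42.0, limma-voom (limma 3.58.1), other scalings, no filter, a replicate block, a covariate marking the 3 shallowest libraries and leaving out each library were alternatives, and the GC slope term, the pooled comparison of both constructs and the marker list medians without single libraries were added after seeing the data. CPM values are scaled by TMM. Isoform ratios are log2 ratios of counts with 0.5 added, compared by exact permutation (numpy 2.4.6). Positions and transcript GC come from GENCODE M21 on GRCm38 and were found for 98 of the 99 genes. Transcript GC is that of the longest transcript of a gene, for example 3038 bases for Cox6c and 6310 for Atp5l. Counts of 8 of the 99 genes (Ndufa11, Ndufa11b, Ndufa13, Ndufaf7, Ndufb4, Ndufb4b, Ndufb4c and Uqcrc2) carry fractions and may be split with copies. The scripts were tested on simulated data.

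Genes named with values are those with the 3 smallest p in a comparison, the isoform pairs, the highest and lowest level of each complex and the 3 with the largest spread; others were chosen after their values were seen. The members and the lists were chosen with earlier results of these data known.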

Additional observations from a re-analysis of the deposited data

How the results depend on the processing

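Of the 5 median log2 fold changes of the respiratory genes, 4 changed sign under at least 1 alternative, and the exception was that of 5NC against 3NC. Of the 27 differences in isoform ratios, 19 changed sign under at least 1 alternative, and the tests of these ratios could not pass in this design. Respiratory genes passed in overexpression against 5NC for 1 gene under DESeq2, and for 0 to 1 when a library was left out, the 1 being Ndufa5 without 3NC 2 (adjusted p = 0.0453). In both constructs against both controls 1 passed with total counts only, 3 with DESeq2, and 0 to 1 when a library was left out (Ndufa5, adjusted p = 0.0314 without overexpression 2 and 0.0316 without 3NC 3). With the replicate number as a block, 3 passed there (Ndufa5 at 0.0374, Cox6c at 0.0434 and Cox6b2 at 0.0470), and the block changed no other call among them. Whether the replicate numbers pair libraries across groups was not settled. Same-numbered libraries had correlations of deviations of 0.210, 0.313 and -0.125 for overexpression and 5NC. For knockdown and 3NC they were 0.0377, -0.0393 and -0.0933, and for 5NC and 3NC 0.299, 0.181 and 0.00317. For overexpression they were 0.144, 0.0311 and 0.180 with knockdown and 0.184, 0.134 and -0.0835 with 3NC. For knockdown and 5NC they were -0.112, -0.0829 and -0.00508. Unlike-numbered libraries of overexpression and 5NC ran from -0.412 to 0.271. Over all genes, the count called in overexpression against 5NC was 78, and 163 with total counts only, 742 with DESeq2, 269 with the block, 442 with the GC term and 5 to 521 with a library left out. In knockdown against 3NC it was 3, and 23 with DESeq2, 0 with only the compared libraries and 1 to 9 with a library left out. For the difference of the effects it was 3, and 53 with DESeq2, 6 with the block and 3 to 12 with a library left out. In 5NC against 3NC it was 40, and 68 with total counts only, 299 with DESeq2, 13 with limma-voom, 6 with the term for low totals, 239 with the GC term, 9 with only the compared libraries and 7 to 126 with a library left out. In both constructs against both controls it was 43, and 68 with total counts only, 656 with DESeq2, 386 with the block, 66 with the GC term and 6 to 300 with a library left out. The median log2 fold change of the respiratory genes was -0.035 with total counts only in overexpression against 5NC (-0.024 to 0.018 with a library left out), -0.012 with the GC term in knockdown against 3NC, -0.065 with total counts only for the difference of the effects, and 0.13 with the term for low totals in 5NC against 3NC. The cause of these shifts was not tested. With 3 libraries a group, depth and number limit the precision, and Ndufb4b, Cox6a2 and Cox8b were too low to test.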
